A study of Chrysemys picta and Apalone spinifera with 20 samples.

Results

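Lhx1 and Lhx2 encode LIM homeodomain transcription factors, proteins in which a pair of zinc-binding LIM domains recruit cofactors of the LDB family and a homeodomain binds DNA. In mouse, Lhx1 acts in the intermediate mesoderm, from which kidney and gonad both arise, and is needed for the nephric duct, for the nephrons and for the female reproductive tract. Mouse Lhx2 is known for its roles in the eye, forebrain, limb bud and hair follicle, and its closest paralog, Lhx9, is required to form the gonad. Both genes are also used by classes of developing spinal neurons. In the turtle data, Lhx1 had 123 to 237 scaled counts in Chrysemys gonad libraries, 51.1 to 129 in complexes of adrenal, kidney and gonad, and 32.5 to 35.4 in trunk libraries. In Apalone the gonads, at 45.9 to 178, overlapped the complexes, at 66.2 to 142. Each tissue came from its own stages. Lhx2 counts were low and uneven, and at stage 22 of Chrysemys had a 31 °C to 26 °C ratio of 0.0911.

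The members were the entries Chrysemys_picta_Lhx1 and Chrysemys_picta_Lhx2, taken by gene name with earlier results of these data known. They were 2 of 13940 entries in the table of the painted turtle Chrysemys picta. The same 2 were among 12678 entries in that of the softshell Apalone spinifera. No other entry of either table took either name, and both members had reads in all 20 libraries. In the RefSeq annotation of a later Chrysemys assembly (ASM1138683v2), LHX1 lies between MRM1 and AATF, and LHX2 between DENND1A and NEK6. That assembly is not the build used for counting, so no coordinates are given.

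Chrysemys has temperature-dependent sex determination, with 31 °C producing females and 26 °C producing males, whereas Apalone has genotypic sex determination and was incubated at the same temperatures as a comparison. Each library was 1 pool of embryos, for 1 species, 1 temperature and 1 stage: stage 9 trunks, the complex of adrenal, kidney and gonad from stages 12 and 15, and stage 19 and 22 gonads. Per the paper, Apalone pools held fewer embryos than Chrysemys pools. They were not sorted by sex, and tissue cannot be told apart from stage. With 1 library per temperature at a stage, a test within a stage compares 2 libraries and not 2 temperatures. In bulk tissue, fewer cells of a type and less RNA per cell cannot be told apart.

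Totals were 11610098 to 24606646 counts per Chrysemys library and 5544730 to 9501484 per Apalone library, in which reads were assigned to Chrysemys genes. Poor matching of Apalone reads and low expression cannot be told apart, so levels are compared within a species only. Of 6 gonad somatic markers, 5 were called higher in gonads than in complexes in each species, where 36.0% of all genes tested were called in Chrysemys and 8.43% in Apalone. In Chrysemys only the 26 °C gonad libraries had higher sums of them, 5953 and 34417 scaled counts, than every complex (1811 to 2592), and the 31 °C gonads, at 1352 and 837, lay below every complex. The list was Nr5a1, Amh, Sox9, Foxl2, Gata4, Dmrt1 and Inha, of which 6 were matched. The paper reports several of these as higher at the male-producing temperature in Chrysemys, and a gene of ovary formation at the female-producing one. A low sum at 31 °C thus cannot tell less gonad tissue from lower expression of such genes. None of 6 adrenal markers was matched. The kidney markers Cdh16, Cubn and Lrp2, 3 of 8 matched, summed to 13402 to 24569 scaled counts in Chrysemys gonad libraries, against 1212 to 5468 in complexes and 678 to 1555 in trunks. In Chrysemys the libraries labelled gonads thus held more RNA of these markers than those labelled as containing kidney. In Apalone the gonad sums, 2305 to 11004, overlapped those of complexes, 814 to 12580. Cdh16 had only 0 to 19.9 scaled counts in the Apalone libraries, so these sums were nearly all Cubn and Lrp2.

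Scaled counts are read counts divided by each library's upper-quartile size, which puts the libraries of a species on 1 scale. In Chrysemys at 31 °C, Lhx1 had 32.5 scaled counts in trunks of stage 9, 82.1 and 116 in complexes of stages 12 and 15, and 237 and 188 in gonads of stages 19 and 22. At 26 °C it had 35.4 in trunks, 51.1 and 129 in complexes, and 152 and 123 in gonads. The trunk libraries were the lowest, with all other libraries above them, and the gonad libraries were the highest except that 1 complex, of stage 15 at 26 °C, lay above the stage 22 gonad at 26 °C. Averaged over the temperatures, the order was stage 9 (34.0 ± 2.09), stage 12 (66.6 ± 21.9), stage 15 (123 ± 9.29), stage 22 (156 ± 46.3) and stage 19 (195 ± 60.0) (SD, n = 2 each). The ranges of stages 15, 19 and 22 overlapped between neighbours, while those of stages 9, 12 and 15 did not.

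In Apalone at 31 °C, Lhx1 had 35.3 scaled counts in trunks, 142 and 89.3 in the stage 12 and 15 complexes, and 158 and 178 in the stage 19 and 22 gonads. At 26 °C it had 42.8 in trunks, 66.2 and 139.6 in complexes, and 45.9 and 130.3 in gonads. The trunks were again the lowest. The gonads, from 45.9 to 178, overlapped the complexes, from 66.2 to 142. The stage 19 gonad at 26 °C stood near the trunks, unlike the other 3 gonad libraries.

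**Figure D1:**
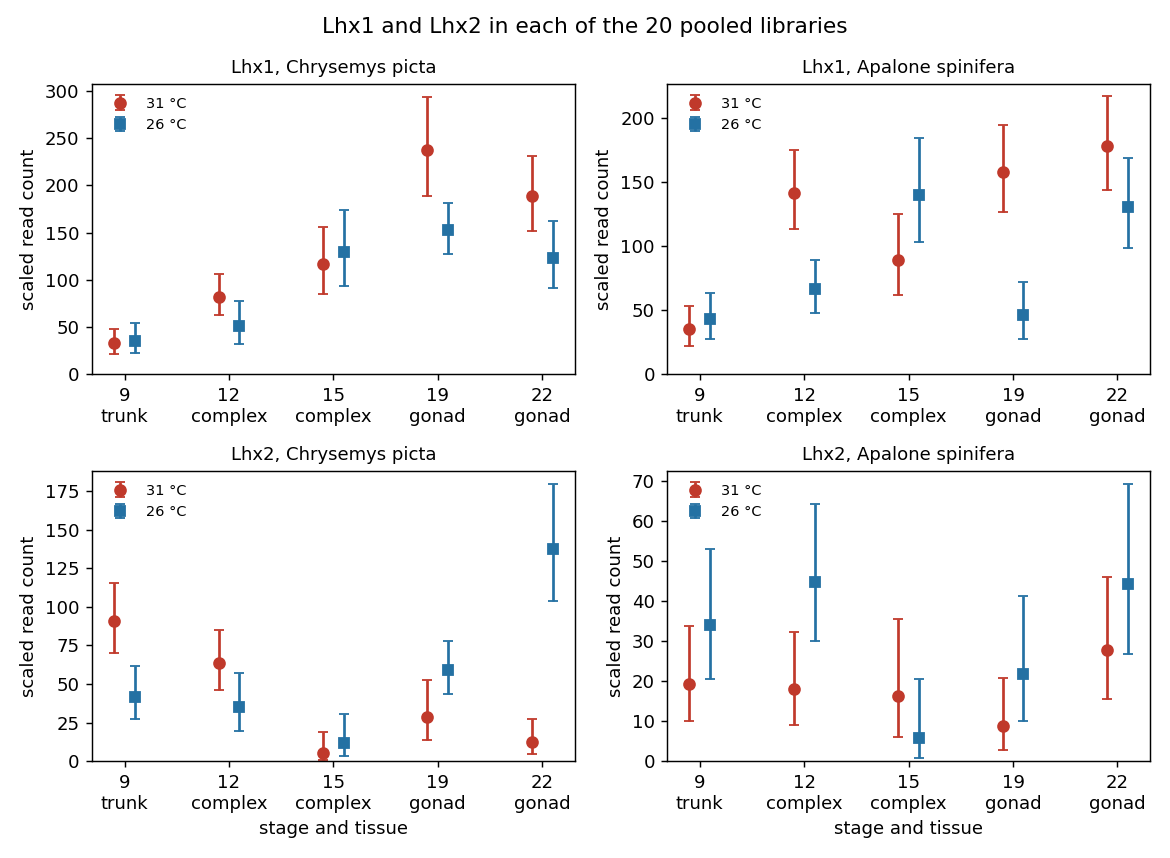
Scaled read count of Lhx1 (top) and Lhx2 (bottom) in each library of Chrysemys picta (left) and Apalone spinifera (right), by stage and tissue, at 31 °C (circles) and 26 °C (squares). Bars are exact 95% Poisson intervals on read pairs and cover counting error only. Chrysemys Lhx1 runs from 32.5 in a trunk to 237 in a gonad, and Chrysemys Lhx2 at stage 22 is 12.6 at 31 °C and 138 at 26 °C.

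The tissue comparison asked whether each gene differed between trunk, complex and gonad libraries, with the temperatures of a stage acting as its replicates. Each tissue came from its own stages, so a difference may be of tissue or of stage. Lhx1 was higher in Chrysemys gonads than in trunks by 2.25 ± 0.41 on the log2 scale (SE, edgeR quasi-likelihood test, adjusted p = 0.0024), where 24.2% of 12827 genes tested were called at an adjusted p under 0.05. This call held without each of the 10 libraries in turn, at 1.95 to 2.51. Gonads exceeded complexes by 0.93 ± 0.30 (adjusted p = 0.0302), among 36.0% of genes called. Complexes exceeded trunks by 1.32 ± 0.39 (adjusted p = 0.049994), just inside the threshold, where 11.7% of genes were called.

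The last pair of calls ended when some single libraries were left out. The difference of gonads from complexes was past the threshold in 4 of the 10 fits that left out a library, and lost it without the stage 12 library of either temperature, the stage 15 or stage 22 library at 31 °C, or the stage 19 library of either temperature. That of complexes from trunks was past it in 3 of 10, and lost it without any of the 26 °C libraries of stages 9 to 19 or the 31 °C libraries of stages 9, 12 and 19. Across those fits the first ran from 0.78 to 1.10 and the second from 1.03 to 1.62. With tissue in place of stage as the term, neither passed the threshold (0.88, adjusted p = 0.0600, and 1.38, adjusted p = 0.0752).

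In Apalone, Lhx1 was higher in gonads than in trunks by 1.57 ± 0.47 (edgeR, adjusted p = 0.0316), where 31.5% of 10644 genes were called. The call was lost without the stage 9 library of either temperature, the stage 22 library at 26 °C or the stage 19 library at 31 °C, and with tissue as the term (1.61, adjusted p = 0.0671). Lhx1 stood 1.41 ± 0.47 above trunks in Apalone complexes, at an adjusted p = 0.0674 in edgeR and 0.0165 in DESeq2, against 17.2% of genes called by edgeR. Gonads and complexes differed by 0.16 ± 0.35 (adjusted p = 0.831), where 8.43% of genes were called. The Chrysemys minus Apalone difference of Lhx1, not called in either contrast tested, was 0.81 ± 0.49 for gonads over complexes (edgeR over 12110 shared genes, adjusted p = 0.294, 11.2% called) and log2 -0.05 ± 0.65 for complexes over trunks (0.57% called).

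Kidney genes moved the same way as Lhx1 in Chrysemys, and their part in the Lhx1 result was not tested. Cubn and Lrp2, which encode the endocytic receptors cubilin and megalin of the proximal tubule, were higher in gonads than in complexes by 3.54 ± 0.47 and 3.25 ± 0.35 on the log2 scale (edgeR, adjusted p = 0.0003 and 8.28e-05). Slc12a1, the sodium-potassium-chloride cotransporter of the loop of Henle in mammals, was higher by 2.84 ± 0.42 (adjusted p = 0.000592) and Hnf4a, a proximal tubule transcription factor, by 2.29 ± 0.36 (adjusted p = 0.000773). These were the 4 measured genes of 10 in the tubule list, and all 4 were called higher, where 36.0% of all genes were called and 19.2% called higher, with a median of 3.04, against 0.04 over all genes. In Apalone, 2 of the 4 were called higher (8.43% of all genes called, 5.35% higher), with a median of 0.84, against a median under 0.01 in size over all genes: Cubn at 1.25 ± 0.32 (adjusted p = 0.0418) and Slc12a1 at 1.12 ± 0.21 (adjusted p = 0.0113). The plot of gonads over complexes sets these genes beside the LIM homeobox family.

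**Figure D2:**
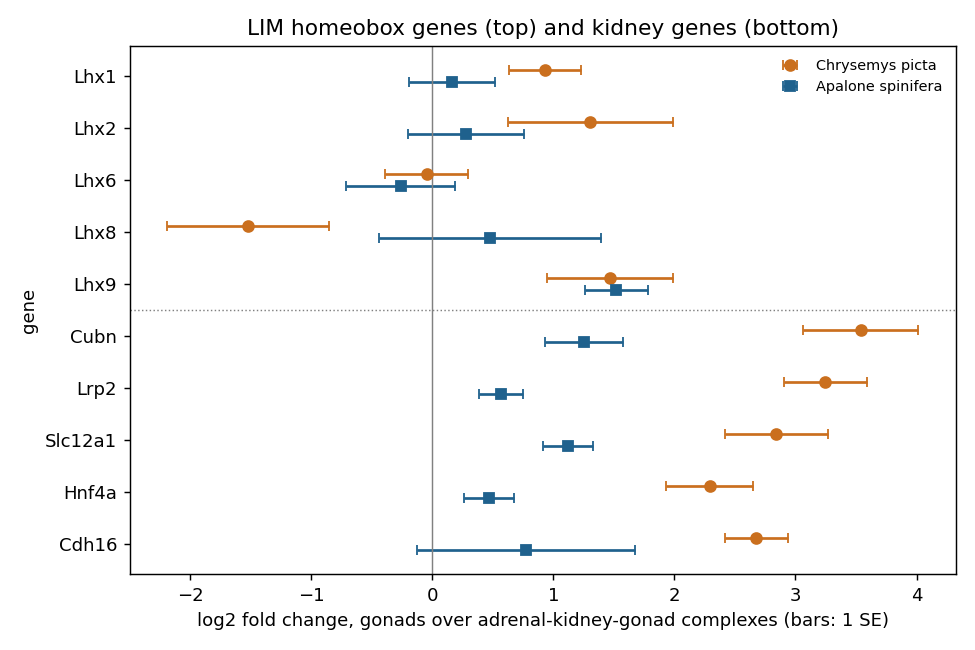
Log2 fold change of gonads over adrenal-kidney-gonad complexes for LIM homeobox genes (top) and kidney genes (bottom) in Chrysemys picta (circles) and Apalone spinifera (squares); bars are 1 SE of the edgeR fit. Chrysemys Lhx1 is at 0.93 and Lhx2 at 1.31, below the 5 kidney genes, 4 of the tubule list and Cdh16, which lie between 2.29 and 3.54 in Chrysemys.

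Kidney marker RNA and Lhx1 did not have the same order of values in every pair of libraries, and their relation was not tested. In Apalone complexes of stage 15, Lrp2 had 10092 scaled counts at 31 °C and 5426 at 26 °C. Lhx1 there had 89.3 at 31 °C and 139.6 at 26 °C. Its ratio of 0.640 had a 95% interval of 0.399 to 1.02, which included 1, so its direction was not resolved. Neuronal markers, 8 of 13 matched, went with Lhx1 from trunks to complexes in Chrysemys and against it from complexes to gonads. Their sum was 3426 to 5973 in Chrysemys trunks, 14181 to 22613 in complexes and 1341 to 10268 in gonads. Of the 8, 5 were called higher in Chrysemys complexes than in trunks, where 5.38% of all genes were called higher. The part of these markers in the Lhx1 result was not tested. In both species 6 of these 8 were called lower in gonads than in complexes and none higher, where 16.8% of all genes were called lower in Chrysemys and 3.08% in Apalone.

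Genes of the nephric lineage, in which mouse Lhx1 acts early, did not share 1 direction. Of 10 measured genes of 20, 4 were called higher and 4 lower in Chrysemys gonads than in complexes, with a median of -0.26, where 36.0% of all genes were called, 19.2% higher and 16.8% lower. Cdh16, the kidney cadherin of tubule and duct epithelium, was higher by 2.68 ± 0.26 (edgeR, adjusted p = 4.41e-05), and Osr1, an early factor of the intermediate mesoderm, by 1.71 ± 0.24 (adjusted p = 0.000434). Bmp7, a signal that maintains nephron progenitors in mouse, was lower by 1.67 on the log2 scale (log2 -1.67 ± 0.25, adjusted p = 0.000609), as was Cited1, a nephron progenitor gene in mouse (log2 -1.19 ± 0.27, adjusted p = 0.00584). In Apalone 2 of the 9 tested were called higher and 2 lower, against 8.43% of all genes called. Tcf21, a transcription factor of podocytes and of the gonadal ridge in mouse, was higher in Chrysemys gonads by 1.68 ± 0.23 (adjusted p = 0.000332).

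Genes of the gonadal ridge gave 5 called higher and 2 lower of 9 measured in Chrysemys gonads over complexes (36.0% of all genes called), and 5 higher and 1 lower of 9 in Apalone (8.43% called). The leading examples in Chrysemys were Gata4 at 4.40 ± 0.91 and Nr5a1, the steroidogenic factor of gonad and adrenal, at 3.49 ± 0.66 (edgeR, adjusted p = 0.00363 and 0.00241). Lhx1 at 0.93 was smaller than any of the 4 tubule changes. Gata4 and Nr5a1 were named for the size of their change. Over all 9 measured gonadal ridge genes in Chrysemys the median was 1.17, with 6 changes above 0 and 3 below.

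The 5 genes whose profile was most like that of Lhx1 over the 10 Chrysemys libraries, of 6083 named genes averaging at least 50 scaled counts, were Slc5a10, Plvap, Pgm1, Slc13a5 and Col3a1. Their Pearson correlations of log2(scaled count + 1) were 0.970, 0.960, 0.958, 0.955 and 0.954. Over the 10 Apalone libraries the same genes gave 0.771, 0.628, 0.321, 0.603 and 0.707. Slc5a10 encodes a sugar transporter expressed in mammalian kidney, Plvap a protein of fenestrated endothelium, and Col3a1 a fibrillar collagen. These libraries share stage and tissue, so the values describe a common profile only.

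Lhx2 had fewer reads than Lhx1 except in the Chrysemys trunks and the Chrysemys stage 22 gonad at 26 °C, a comparison of reads with no correction for gene length. In Chrysemys at 31 °C, Lhx2 had 90.7 scaled counts in trunks, 63.7 and 5.28 in the stage 12 and 15 complexes, and 28.6 and 12.6 in the stage 19 and 22 gonads. At 26 °C it had 41.9 in trunks, 34.8 and 12.0 in complexes, and 58.8 and 138 in gonads. The trunks and stage 12 complexes were higher at 31 °C and the gonads higher at 26 °C, while both stage 15 complexes were low, with 4 reads at 31 °C and 8 at 26 °C. The highest library, the stage 22 gonad at 26 °C, had 26.1 times the lowest, against 7.30 times for Lhx1.

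In Apalone at 31 °C, Lhx2 had 19.2 scaled counts in trunks, 17.9 and 16.2 in complexes, and 8.88 and 27.8 in gonads. At 26 °C it had 33.9 in trunks, 44.6 and 5.70 in complexes, and 21.7 and 44.2 in gonads. The 26 °C library was the higher at every stage except stage 15, where it held 4 reads. Averaged over the temperatures, the order of the Chrysemys stages was 15 (8.66 ± 4.77), 19 (43.7 ± 21.4), 12 (49.2 ± 20.4), 9 (66.3 ± 34.5) and 22 (75.2 ± 88.6), and of the Apalone stages 15 (11.0 ± 7.46), 19 (15.3 ± 9.10), 9 (26.6 ± 10.4), 12 (31.3 ± 18.9) and 22 (36.0 ± 11.6) (SD, n = 2 each). Both Chrysemys stage 15 libraries lay below all other Chrysemys libraries, the next being the stage 22 gonad at 31 °C. All other neighbours in these orders overlapped.

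No tissue contrast of Lhx2 passed the threshold. Chrysemys gonads stood 1.31 ± 0.68 above complexes (edgeR, adjusted p = 0.153), and complexes at log2 -1.84 ± 0.75 against trunks (adjusted p = 0.123). Without the stage 22 gonad library at 31 °C, both passed it, at 1.97 (adjusted p = 0.0109) and -1.73 (adjusted p = 0.0402). Without the stage 22 gonad library at 26 °C, the first was 0.18 (adjusted p = 0.853), so the Lhx2 level of gonads depended on which stage 22 library was kept. Stage 15 stood at log2 -2.70 ± 1.01 against stage 12 in Chrysemys (edgeR, unadjusted p = 0.0208, adjusted p = 0.536). In that contrast edgeR called 0 of 12827 genes, 953 having an unadjusted p under 0.05, and DESeq2 called 210. Without each library in turn the Chrysemys value ran from -3.56 to -1.54, and it was -1.54 without the stage 12 library at 31 °C. In Apalone the same contrast gave -1.31 ± 0.71 for Lhx2 (adjusted p = 0.234), where 14.8% of genes were called. That value was -0.27 without the stage 15 library at 26 °C, -0.82 without the stage 12 library at 26 °C and -2.82 without the stage 15 library at 31 °C. Apalone gonads over complexes gave 0.28 ± 0.48 (adjusted p = 0.778). The Chrysemys minus Apalone difference in gonads over complexes was 1.07 ± 0.94 for Lhx2 (adjusted p = 0.490).

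The within-stage comparison of 31 °C with 26 °C libraries used the study's test and threshold, Fisher's exact test with a call at an adjusted p under 1e-10. Scaling was by upper quartile alone. The study also scaled to housekeeping genes, which it reports gave fewer calls than the upper quartile alone. It also ran DESeq and edgeR on random subsets of the reads. Neither step was repeated here. Of the 20 comparisons of a member, 2 were called: Lhx2 at stage 22 of Chrysemys and Lhx1 at stage 19 of Apalone. Over all genes, the share called ran from 4.53% at stage 9 of Apalone to 28.6% at stage 19 of Chrysemys. Each read pair had been counted as 2, which makes these p-values too small, so ratios carry 95% intervals computed on read pairs.

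Lhx2 at stage 22 of Chrysemys had 12 reads at 31 °C and 110 at 26 °C. The scaled counts of 12.6 and 138 gave a 31 °C to 26 °C ratio of 0.0911 (95% interval 0.032 to 0.211, Fisher's exact test, adjusted p = 2.06e-24), at a stage where 23.4% of genes were called and 9.8% called lower. Ranked with a pseudocount of 1 added to the scaled counts, 57 of 13640 genes, 0.418%, had a lower ratio. Of those 13640 genes, 13409 had reads in the 31 °C library. Genes with none there had a lower ratio without the pseudocount. The call held under all 5 other scalings and ways of counting, at ratios of 0.0709 to 0.0920, including when each read pair was counted once (adjusted p = 2.74e-12). Stage 19 gave no call, although Lhx2 had 28.6 scaled counts at 31 °C against 58.8 at 26 °C, a ratio of 0.486 (0.220 to 0.971, adjusted p = 0.00434, 28.6% called). The 3 earlier stages gave 2.17 in trunks (1.36 to 3.55, adjusted p = 2.69e-06, 25.3% called), 1.83 in stage 12 complexes (1.0 to 3.53, adjusted p = 0.00875, 13.0% called) and 0.439 in stage 15 complexes (0.0397 to 3.06, adjusted p = 0.329, 18.0% called). When each read pair was counted once, Fisher's exact test gave an adjusted p = 0.0612 at stage 19, 0.00158 in trunks and 0.115 at stage 12.

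The same stage 22 libraries differed widely in other markers, and the part of these in the Lhx2 ratio was not tested. Gonad somatic markers, 6 of 7 matched, summed to 837 scaled counts at 31 °C and 34417 at 26 °C, with 5 of 6 called lower and 1 higher at 31 °C, against 23.4% of all genes called. The paper reports several genes of this list as higher at the male-producing temperature in Chrysemys. Less gonad tissue and lower expression of such genes cannot be told apart by these sums. Skeletal muscle markers, 6 of 10 matched, summed to 25910 at 31 °C and 2233 at 26 °C. Kidney markers differed less, at 24569 at 31 °C and 18116 at 26 °C. Cartilage markers, 4 of 5 matched, summed to 1540 at 31 °C and 10422 at 26 °C, with 3 called lower. Neuronal markers, 8 of 13 matched, summed to 4993 at 31 °C and 1341 at 26 °C. Gonadal ridge genes, 9 of 10 matched, summed to 4077 at 31 °C and 5809 at 26 °C. Germ cell markers, 2 of 6 matched, summed to 897 at 31 °C and 1133 at 26 °C. At stage 19 the gonad somatic sum was 1352 at 31 °C and 5953 at 26 °C, and the muscle sum 22627 and 1985, so these sums each differed in the same direction in both Chrysemys gonad pairs. The kidney sum did not: it was 13402 at 31 °C and 16867 at 26 °C at stage 19.

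Across the gonad stages together, with the stages as replicates, the Chrysemys Lhx2 difference was log2 -2.24 ± 0.70 (edgeR, unadjusted p = 0.00695, adjusted p = 0.161), where 1.62% of genes were called. It was -1.13 without either stage 22 library and -3.45 and -3.43 without the stage 19 library of 26 °C or 31 °C. At stages 9 to 15 the difference was 0.55 ± 0.57 (0.0% called), and the gonads minus the earlier stages gave -2.79 ± 0.91 (unadjusted p = 0.00853, adjusted p = 0.349, 0.507% called). That last difference was -4.00 without the stage 19 library of either temperature, and -1.69 and -1.70 without the stage 22 library of 26 °C or 31 °C. Over all 5 stages the temperature difference was -0.60 ± 0.63 (adjusted p = 0.937, 0.0156% called). No fit with stages as replicates called Lhx2 by temperature.

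In Apalone, Lhx2 was not called at any stage. The 31 °C to 26 °C ratio was 0.568 (0.251 to 1.23) in trunks, where 4.53% of genes were called. In complexes it was 0.402 (0.181 to 0.829) at stage 12 and 2.85 (0.510 to 28.9) at stage 15, and 8.49% of genes were called at stage 15. In gonads it was 0.408 (0.107 to 1.36) at stage 19 and 0.629 (0.297 to 1.31) at stage 22, with 11.2% and 11.1% called. The stage 12 interval alone excluded 1 (Fisher's exact test, adjusted p = 0.00105, 5.38% called). When each read pair was counted once, the adjusted p there was 0.0576 (Fisher's exact test). Over the 5 Apalone stages the fitted difference was log2 -0.65 ± 0.43 (edgeR, adjusted p = 0.468, 0.0282% called), and between the species the temperature effect on Lhx2 differed by 0.07 ± 0.89 (adjusted p = 0.996). In that species difference edgeR called 0 of 12110 genes, with 740 at an unadjusted p under 0.05, and DESeq2 called 17.

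**Figure D3:**
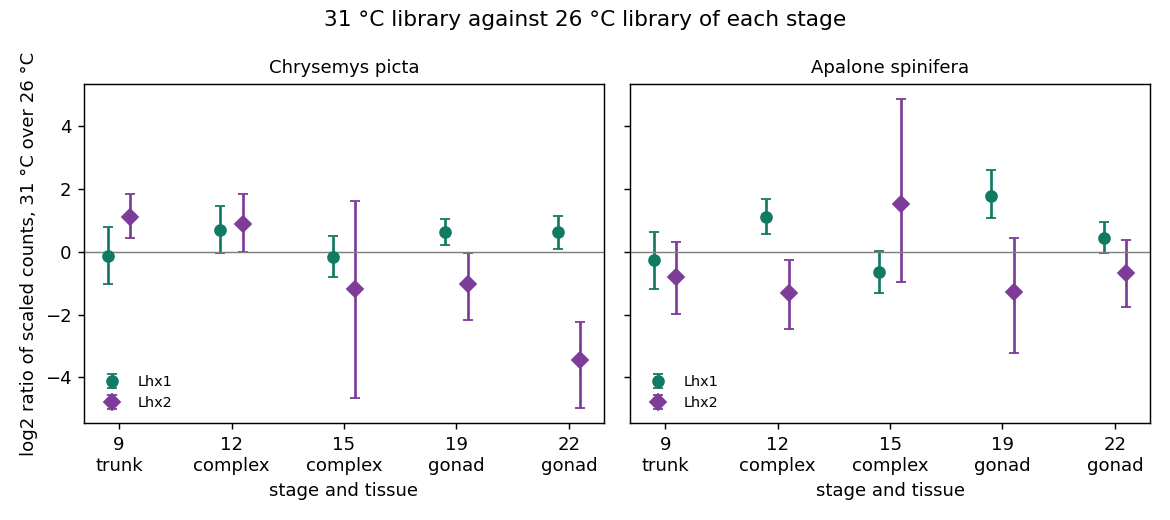
Log2 of the ratio of scaled counts, 31 °C over 26 °C, for Lhx1 (circles) and Lhx2 (diamonds) at each stage in Chrysemys picta (left) and Apalone spinifera (right), with no pseudocount. Bars are exact 95% intervals on read pairs for 1 library against another, and 0 is an equal level. In the 4 gonad pairs Lhx1 lies above 0 and Lhx2 below.

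Lhx1 at stage 19 of Apalone had 178 reads at 31 °C and 38 at 26 °C. The scaled counts of 158 and 45.9 gave a ratio of 3.44 (2.08 to 5.98, Fisher's exact test, adjusted p = 1.68e-13), where 11.2% of genes were called and 4.83% called higher. Counted once per read pair, it missed the threshold (adjusted p = 8.15e-07). The other Apalone ratios of Lhx1 were 0.824 (0.441 to 1.53) in trunks, 2.14 (1.47 to 3.17, adjusted p = 3.58e-08) in stage 12 complexes, 0.640 (0.399 to 1.02) in stage 15 complexes and 1.36 (0.972 to 1.93) in stage 22 gonads. At stage 12, kidney markers were also higher at 31 °C, with 2 of 3 called (5.38% of all genes called), Cdh16 having 1.63 scaled counts at 31 °C and 0 at 26 °C. At stage 19 the kidney markers summed to 3142 at 31 °C and 2305 at 26 °C. Gonad somatic markers at stage 19 summed to 769 at 31 °C and 2085 at 26 °C, and liver markers, 3 of 4 matched, to 508 at 31 °C and 14540 at 26 °C. Of the 10 measured genes of the nephric lineage, 5 were called higher and 1 lower at that stage, with a median of 1.02 on the log2 scale. The part of these lists in the Lhx1 ratio was not tested.

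In Chrysemys no stage was called for Lhx1. The 31 °C to 26 °C ratios were 0.917 (0.492 to 1.71) in trunks and, in complexes, 1.61 (0.969 to 2.76) at stage 12 and 0.898 (0.577 to 1.40) at stage 15. In gonads they were 1.56 (1.17 to 2.07) at stage 19 and 1.53 (1.07 to 2.22) at stage 22. Both gonad intervals excluded 1 (Fisher's exact test, adjusted p = 3.26e-05 and 0.0013). Yet, ranked with a pseudocount of 1 on the scaled counts, 3082 of 13753 genes at stage 19 and 3075 of 13640 at stage 22 had a higher ratio. When each read pair was counted once, the adjusted p was 0.00563 at stage 19 and 0.0376 at stage 22 (Fisher's exact test). The fitted gonad difference of Lhx1 was 0.59 ± 0.42 on the log2 scale in Chrysemys (edgeR, adjusted p = 0.573). In Apalone gonads it was 1.09 ± 0.47 (adjusted p = 0.307), in a test where edgeR called 0 of 10644 genes, 1671 having an unadjusted p under 0.05, and DESeq2 called 248. Without the stage 19 library of 26 °C or 31 °C the Apalone value was 0.46 or 0.48, and without that of stage 22 it was 1.76. The temperature effect over the 5 stages was 0.32 ± 0.27 in Chrysemys and 0.49 ± 0.33 in Apalone, differing by log2 -0.16 ± 0.45 (adjusted p = 0.981).

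The ratio of Lhx1 to Lhx2 reads within a library does not depend on any scaling between libraries. In Chrysemys gonads it was 8.30 at stage 19 and 15.0 at stage 22 at 31 °C, against 2.59 and 0.891 at 26 °C. In Apalone gonads it was 17.8 and 6.40 at 31 °C, against 2.11 and 2.95 at 26 °C. Within each species, both gonad libraries at 31 °C thus lay above both at 26 °C. The ratio itself is not compared between species, because matching of Apalone reads may differ between the genes. The mean difference within pairs was 2.49 ± 1.34 on the log2 scale (SD, 4 pairs). In the Apalone stage 22 pair the change of 2.17 times had a 95% interval of 0.956 to 4.97, which included 1. This comparison was chosen after the values were seen, and with 4 pairs the exact two-sided sign-flip permutation test gave 0.125, the smallest p it allows.

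The earlier stages did not share that order. The ratio was 0.358 at 31 °C and 0.846 at 26 °C in Chrysemys trunks, 1.29 and 1.47 at stage 12, and 22.0 and 10.8 at stage 15. In Apalone it was 1.83 and 1.26 at stage 9, 7.91 and 1.48 at stage 12, and 5.50 and 24.5 at stage 15. The stage 15 ratios rested on few Lhx2 reads, 4 at 31 °C and 8 at 26 °C in Chrysemys, and 12 and 4 in Apalone. Their 31 °C over 26 °C change was 2.05 times (0.275 to 23.6) in Chrysemys and 0.224 times (0.0213 to 1.38) in Apalone, so neither direction was resolved. Over all 10 pairs the 31 °C library had the higher ratio in 7, with a mean difference of 1.03 ± 1.91 (log2, SD, exact sign-flip permutation p = 0.123). By Fisher's exact test of read pairs in each of the 10, adjusted over them, the largest was Chrysemys stage 22, at 16.8 times (6.53 to 50.6, adjusted p = 1.47e-12). Chrysemys stage 19 gave 3.20 times (1.49 to 7.47, adjusted p = 0.00272), Apalone stage 19 gave 8.43 times (2.19 to 35.0, adjusted p = 0.00165) and Apalone stage 12 gave 5.33 times (2.30 to 12.9, adjusted p = 8.32e-05). Chrysemys stage 9 went the other way at 0.423 times (0.191 to 0.944, adjusted p = 0.048). The remaining 5 pairs had adjusted p-values of 0.0881 to 0.847.

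**Figure D4:**
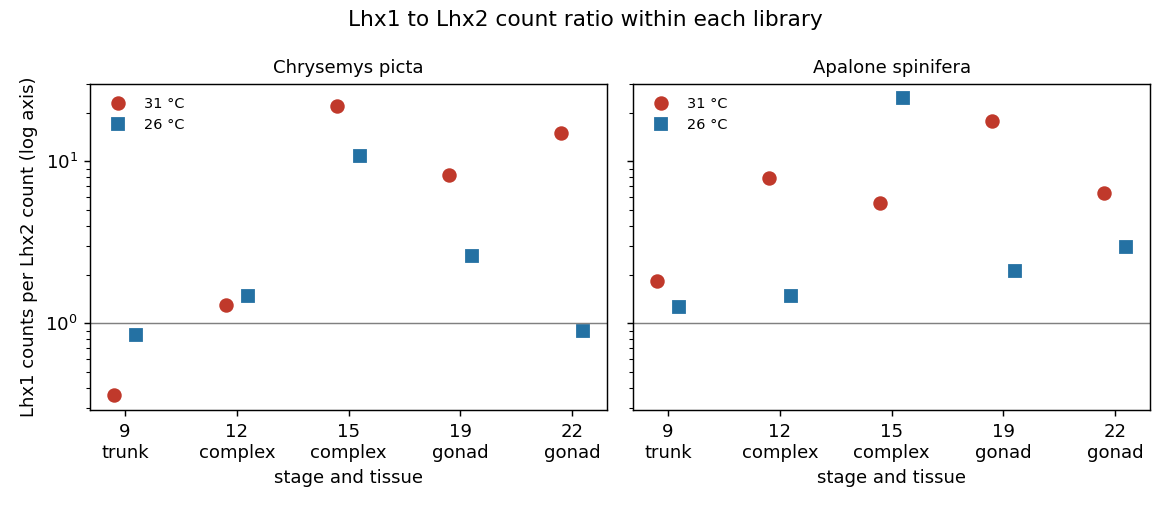
Reads of Lhx1 per read of Lhx2 within each library (log axis) by stage and tissue in Chrysemys picta (left) and Apalone spinifera (right), at 31 °C (circles) and 26 °C (squares). The grey line marks equal counts, no intervals are drawn, and the stage 15 ratios rest on 4 to 12 Lhx2 reads per library. In Chrysemys gonads the 31 °C libraries are at 8.30 and 15.0 and the 26 °C libraries at 2.59 and 0.891. In Apalone gonads they are at 17.8 and 6.40, against 2.11 and 2.95. Ratios are compared within a species only.

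Of 12 LIM homeobox genes searched, 5 were matched in both tables: Lhx1, Lhx2, Lhx6, Lhx8 and Lhx9. In Chrysemys gonads over complexes, 2 of the 5 were called higher, Lhx1 and Lhx9, and none lower, a share near the 36.0% of all genes called. In Apalone Lhx9 alone of the 5 was called, against 8.43% of all genes. Lhx9, the paralog of Lhx2, was higher in gonads by 1.47 ± 0.52 in Chrysemys and 1.52 ± 0.26 in Apalone (edgeR, adjusted p = 0.0449 and 0.00828), where Lhx2 gave 1.31 ± 0.68 and 0.28 ± 0.48. Lhx6 and Lhx8, known in mouse from forebrain and tooth development and, for Lhx8, from the oocyte, passed the threshold in neither species.

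Lhx9 also differed between the stage 22 libraries of Chrysemys. With 128 scaled counts at 31 °C against 511 at 26 °C, its ratio was 0.250 (0.184 to 0.334, Fisher's exact test, adjusted p = 4.16e-48, called). At stage 19, with 217 at 31 °C against 347 at 26 °C, the ratio was 0.626 (0.480 to 0.809, adjusted p = 2.76e-07, not called). At stage 22 of Apalone it lay the other way, with 361 at 31 °C and 209 at 26 °C (ratio 1.72, 1.34 to 2.24, adjusted p = 4.61e-09, not called), while stage 19 of Apalone, with 786 at 31 °C against 1097 at 26 °C, was called lower (ratio 0.717, 0.628 to 0.819, adjusted p = 2.15e-11). In Chrysemys trunks Lhx9 was called higher, with 78.5 at 31 °C against 12.9 at 26 °C (ratio 6.09, 2.90 to 14.8, adjusted p = 9.68e-16). When each read pair was counted once, the Lhx9 call at stage 22 of Chrysemys held (Fisher's exact test, adjusted p = 2.63e-24). Those in Chrysemys trunks (adjusted p = 3.65e-08) and at stage 19 of Apalone (adjusted p = 7.24e-06) then missed the threshold. Over the 10 libraries of a species the Lhx2 and Lhx9 profiles correlated at 0.324 in Chrysemys and -0.255 in Apalone. How reads common to these paralogs were counted was not tested. The 5 genes most like Lhx2 over the Chrysemys libraries, of 6084, were Rcc2, Mycl, Igf2bp2, Cfap53 and Znf385c, at 0.915, 0.875, 0.870, 0.867 and 0.859. Over the Apalone libraries they gave 0.457, 0.287, 0.458, -0.161 and 0.034. Igf2bp2 encodes an RNA-binding protein of embryonic tissues and Mycl a MYC family factor. Lhx1 and Lhx2 themselves correlated at -0.365 in Chrysemys and -0.327 in Apalone.

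A further list held the cofactors through which LIM homeodomain factors act and the LIM-only proteins that compete for them. Of 7 measured genes of 10, in gonads over complexes, 1 was called lower in Chrysemys (36.0% of all genes called), the LIM-only gene Lmo4 at log2 -0.63 ± 0.20 (edgeR, adjusted p = 0.0304), and 1 in Apalone (8.43% called), Ssbp3, a partner of LDB proteins, at log2 -0.47 ± 0.12 (adjusted p = 0.0405). The list medians were -0.27 in Chrysemys and -0.20 in Apalone. In gonads over trunks, 1 of the 7 was called lower in Chrysemys (24.2% of all genes called) and 3 in Apalone (31.5%), with none higher. At stage 22 of Chrysemys, 2 of the 7, Lmo2 and Lmo4, were called higher at 31 °C by Fisher's exact test, where 23.4% of all genes were called and 13.6% called higher (log2 1.18 and 0.72, adjusted p = 5.21e-45 and 8.99e-33), while Ldb1, the main LIM-binding cofactor, stood at -0.16 and Ldb2 at 0.05, neither called. The stage 19 gonads of Chrysemys differed more in these 2 cofactors. Ldb1 had 6338 scaled counts at 31 °C against 3438 at 26 °C, and Ldb2 had 457 against 773. At that stage 2 of the 7 were called higher and 2 lower, where 28.6% of all genes were called.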

How the data were processed

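Raw read counts per gene were deposited as 1 table per species. Per the paper's methods and the submitters' processing notes, the authors trimmed reads with Trimmomatic 0.27, mapped them with GSNAP to genes of the Chrysemys genome, for both species, and counted without strand in HTSeq. All counts were even, each read pair adding 2. Symbols from entry names and RefSeq (ASM1138683v2) covered 6874 of 13940 Chrysemys and 6784 of 12678 Apalone entries. Libraries were scaled by upper quartile within a species, without the housekeeping step of the study. Fisher's exact test compared the libraries of a stage. Quasi-likelihood tests in edgeR 4.0.16 (R 4.3.3) used TMM, filterByExpr and stage plus temperature, with Benjamini-Hochberg adjustment and SEs taken as the fold change over the square root of F. DESeq2 1.42.0, other scalings, no filter, halved counts, tissue as the term, no stage block and leaving out each library were alternatives. Fisher's exact test was checked on simulated read pairs with no spread between pools. That check could not cover the double counting of pairs or such spread. The edgeR test was checked on simulated counts with the same dispersion for all genes. Named genes were the members, Lhx9, up to 4 called genes per list with the largest change between gonads and complexes, and the 5 with the most similar profile; Ldb1, Ldb2, Lmo2, Lhx6 and Lhx8 were named after their values were seen. The members and lists were chosen with earlier results of these data known. Each edgeR p-value sets a difference against the spread between pools that the terms of its fit leave. With 1 pool per temperature and stage, that spread can also hold a change of the temperature effect with stage. Intervals cover counting error only. No sequences are shown because none was held for these entries.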

Additional observations from a re-analysis of the deposited data

How the results depend on the processing

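Over 62 results, 817 alternative values were computed: 751 kept direction and side of the threshold, 21 lost a call, 6 gained one and 39 turned sign, every turn occurring where a library was left out of an uncalled result. Lhx1 at stage 19 of Apalone stayed at 1.76 (log2 with a pseudocount of 1) but lost its call when read pairs were counted once. With tissue in place of stage, Lhx1 lost its calls in Chrysemys gonads over complexes (0.88) and complexes over trunks (1.38) and in Apalone gonads over trunks (1.61). DESeq2 called Lhx1 in Apalone complexes over trunks (1.41). Fits that left out a library also had fewer degrees of freedom. Why calls were lost or gained was not tested.

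Without each library in turn, log2 differences in complexes over trunks ran from 1.03 to 1.62 (Lhx1, Chrysemys), 1.0 to 1.89 (Lhx1, Apalone), -2.70 to -0.46 (Lhx2, Chrysemys) and -1.28 to 0.0083 (Lhx2, Apalone). Gonads over complexes ran from 0.78 to 1.10 and -0.30 to 0.54 for Lhx1 in Chrysemys and Apalone, and 0.18 to 1.97 and -0.21 to 1.05 for Lhx2. Gonads over trunks ran from 1.12 to 2.03 for Lhx1 in Apalone and -1.58 to 0.68 for Lhx2 in Chrysemys. Stage 15 over 12 ran from -0.47 to 0.89 (Lhx1, Apalone), -3.56 to -1.54 (Lhx2, Chrysemys) and -2.82 to -0.27 (Lhx2, Apalone), and stage 22 over 19 from -1.80 to 1.70 (Lhx2, Chrysemys). Temperature at stages 9 to 15 ran from -0.19 to 0.29 (Lhx1, Chrysemys), -0.45 to 0.45 (Lhx1, Apalone) and -1.09 to 0.12 (Lhx2, Apalone), temperature over 5 stages from -1.17 to 0.10 (Lhx2, Chrysemys), and gonads minus earlier stages from -4.00 to -1.69 (Lhx2, Chrysemys) and -1.06 to 0.14 (Lhx2, Apalone). Chrysemys minus Apalone differences ran from -0.49 to 0.44 (Lhx1) and -2.12 to 0.062 (Lhx2) for complexes over trunks, -0.045 to 1.70 (Lhx2) for gonads over complexes, and -0.45 to 0.15 (Lhx1) and -0.48 to 0.77 (Lhx2) for temperature.

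Counts of genes called moved as well. Chrysemys complexes over trunks gave 1498 genes, 2394 by DESeq2 and 651 with tissue as the term. Apalone gave 897, 1829 and 3350 genes in gonads over complexes, complexes over trunks and gonads over trunks, and 115, 46 and 1301 with tissue as the term. Temperature in Chrysemys gonads gave 208 genes, 494 by DESeq2, 322 without the filter and 67 without the stage block, and gonads minus earlier stages 65, against 168 by DESeq2. The species difference in gonads over complexes gave 1351 genes, 2179 by DESeq2. Without each library in turn, Chrysemys complexes over trunks gave 18 (without the stage 9 library at 26 °C) to 1900 genes, gonads over complexes 2645 to 4575, gonads over trunks 1260 to 3330, temperature in gonads 74 to 460 and gonads minus earlier stages 38 to 176. Apalone gave 399 to 1822, 281 to 837 and 1862 to 3170 in the first 3 of these contrasts, and 75 to 1654 in stage 15 over 12. The species difference in gonads over complexes gave 417 to 1651 genes. The libraries of a stage were paired by the stage block in each temperature fit except the one run without it.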
